A study of Mus musculus with 12 samples.

Results

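The genes of the respiratory chain and of the ATP synthase were described in retinal RNA of 4 groups of mice, with 3 libraries in each group. The members were chosen by name. Protein-coding genes whose symbol starts with Ndufa, Ndufb, Ndufc, Ndufs, Ndufv, Uqcr, Cox4 to Cox8 or Atp5, the genes Sdha to Sdhd and Cyc1, and the genes of mitochondrial DNA that start with mt-Nd, mt-Co, mt-Atp or mt-Cytb were taken, and pseudogenes and Ndufaf assembly factors were left out. This gave 100 of the 54532 genes of the count table, of which 87 are encoded in the nucleus and 13 in mitochondrial DNA. The expression filter kept 94 of them, 82 nuclear and 12 mitochondrial, among 18299 genes tested.

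All mice were wild-type female C57BL/6 animals, 13 weeks old when the retinas were taken. SHAM mice were the sham control. MOG mice were immunized with a peptide of myelin oligodendrocyte glycoprotein in complete Freund's adjuvant, with pertussis toxin, to induce experimental autoimmune encephalomyelitis (EAE) with optic neuritis. GB20 and GV16 mice were immunized in the same way and later needled at the acupoint GB20 or at the control acupoint GV16 under xylazine and ketamine. The sources used here do not say whether SHAM mice received adjuvant, toxin or anaesthetic, or whether retinas were pooled in a library. The p-values therefore measure the spread between these libraries. The question of each comparison was how immunization, or needling of immunized mice, related to the level of these genes.

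Oxidative phosphorylation is carried by 5 protein complexes of the inner mitochondrial membrane. Complex I (NADH dehydrogenase) and complex II (succinate dehydrogenase) pass electrons to ubiquinone, complex III passes them to cytochrome c, complex IV (cytochrome c oxidase) passes them to oxygen, and complex V, the ATP synthase, uses the proton gradient to make ATP. Every complex but complex II is built from subunits of both genomes, so nuclear and mitochondrial transcripts have to be made in parallel. The retina is known for a high use of oxygen, with mitochondria packed in the inner segments of photoreceptors and in the unmyelinated axons of retinal ganglion cells. Mitochondrial DNA holds 7 members of complex I, 1 of complex III, 3 of complex IV and 2 of complex V, and the nucleus holds 36, 4, 9, 20 and 18 members of complexes I to V. Ndufa4 and its paralog Ndufa4l2 were counted with complex IV, where the NDUFA4 protein is found.

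Each library held between 15860278 and 19194280 counts on genes. The nuclear members took 0.673% to 0.858% of the counts and the mitochondrial members 2.31% to 2.86%. Rod markers, which define the retina, summed to 61200 to 67600 CPM (counts scaled to library depth) over their 10 genes, and the sums of SHAM and MOG overlapped. SHAM replicate 2 stood apart from the other SHAM libraries. Its lens markers summed to 14.0 CPM, against 0.363 and 1.5 CPM in SHAM replicates 1 and 3, and GB20 replicate 2 followed with 7.83 CPM. Its counts also leaned most toward short transcripts, with a slope of -0.11 on the log2 scale for each doubling of exon length over 11130 genes, while the other 11 libraries lay between -0.0462 and 0.0487. Medians and members of MOG vs. SHAM are therefore also given without it.

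The nuclear members spanned a wide range of levels. In FPKM, fragment counts scaled by library depth and by annotated gene length, the highest was Cox8a, a small subunit of complex IV, at 298 ± 48.9 (SD, n = 3) in SHAM. It was followed by Atp5b, the catalytic beta subunit of the ATP synthase, at 239 ± 21.9 FPKM. The lowest tested member was Ndufa4l2, at 1.30 ± 0.316 FPKM. By complex, the median SHAM level of the tested nuclear members was 29.4 FPKM in complex I, 32.1 in complex II, 49.7 in complex III, 52.6 in complex IV and 38.1 in complex V. Within complex I the lowest level per length was that of Ndufb2, an accessory subunit, at 6.55 ± 0.199 FPKM. Its annotated exons sum to 5628 bases, and in CPM it stood at 37.1 in SHAM, above Ndufa1 at 25.1. Within complex II the levels ran from Sdhb, the iron-sulfur subunit, at 22.6 ± 2.84 FPKM to Sdha, the flavoprotein that oxidizes succinate, at 83.0 ± 4.29. Complex III had the narrowest range, from Uqcrq at 40.2 ± 6.79 to Uqcr10 at 79.1 ± 11.7 FPKM, both small subunits. The lowest member of complex V was Atp5s at 6.81 ± 1.25 FPKM. Subunits of 1 complex therefore differed in FPKM. Part of this spread can come from the annotated lengths, as for Ndufb2, and that part was not tested.

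Several subunits come as isoforms from separate genes, and in each set the retina held mainly the widely expressed form. Cox4i1 stood at 140 ± 20.5 FPKM in SHAM and Cox4i2, an isoform linked to low oxygen, at 23.6 ± 2.97. Cox6a1 reached 168 ± 22.7 FPKM, whereas its muscle isoform Cox6a2 lay between 0.0875 and 0.656 FPKM over the 12 libraries. Cox8a had a muscle isoform Cox8b at 0.169 to 1.41 FPKM and a further paralog Cox8c with 0 counts in all 12 libraries. The sets therefore differed in how far their minor form was detected. Cox7a2 stood at 59.3 ± 7.63 and Cox7a2l, which takes part in joining complexes into supercomplexes, at 105 ± 14.6 FPKM, against 2.86 ± 0.705 for the muscle form Cox7a1. Cox6b1 stood at 91.5 ± 12.1 and Cox6b2, a form known from testis, at 5.13 ± 1.39 FPKM. Ndufa4 stood at 132 ± 20.4 FPKM, far over Ndufa4l2. The genes Atp5g1, Atp5g2 and Atp5g3 encode the same mature subunit c of the ATP synthase rotor. They stood at 11.6 ± 1.37, 40.6 ± 4.81 and 69.7 ± 7.30 FPKM in SHAM. In CPM the SHAM means were 57.5, 68.6 and 153, so that Atp5g3 was the highest by both measures. Atp5g2 shares 34.733% of its 100-base windows with a processed pseudogene, and its level is uncertain by that share. The exons of 31 nuclear members overlap another gene, and the strand setting of the counting is not given, so their reads cannot be told apart from those of the overlapping gene. Cox7b2 (2 counts over all libraries), Cox6a2 (51), Cox8b (40), Cox8c (0), a duplicate entry of Atp5o (0) and mt-Atp8 (90) did not pass the expression filter and were not tested.

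Nuclear genes of the chain are known targets of the factors NRF1, of the ETS factor GABP (NRF2) and of YY1. The 250 bases before and 50 bases after their start sites were searched in RefSeq on GRCm38.p6, where 67 of 86 symbols (77.91%) had a window, 72 windows in all. With so many symbols unmatched, the shares describe these windows and are void as a comparison over all nuclear members. An NRF1 motif (GCGCATGC, either strand) was present in 13.89% of these windows and in 2.71% of all 32851 windows. An ETS motif (CCGGAAG, either strand) was present in 22.22% against 8.86%, and a YY1 motif (AAGATGGC, either strand) in 12.5% against 2.75%. At least 1 of the 3 was present in 40.28% of the members' windows and in 13.3% of all windows. The ETS motif ends in the letters AAG with which the YY1 motif starts, so both can share these letters, and an NRF1 motif can overlap its own reverse complement, as in Cox6a1. A match is a description of the letters, and binding was not measured. The 3 windows below are printed because they show each motif in members of complexes III, IV and I. Capitals mark the motifs. The window of Uqcr11, a small subunit of complex III, lies at chr10:80406772-80407071 (minus strand) and holds an ETS and an NRF1 motif. The window of Cox6a1 lies at chr5:115348909-115349208 (minus strand) and holds overlapping NRF1 motifs and an ETS motif. The window of Ndufs6, a zinc-binding subunit of complex I, lies at chr13:73328433-73328732 (minus strand) and holds a YY1 motif just inside the transcript.
Uqcr11: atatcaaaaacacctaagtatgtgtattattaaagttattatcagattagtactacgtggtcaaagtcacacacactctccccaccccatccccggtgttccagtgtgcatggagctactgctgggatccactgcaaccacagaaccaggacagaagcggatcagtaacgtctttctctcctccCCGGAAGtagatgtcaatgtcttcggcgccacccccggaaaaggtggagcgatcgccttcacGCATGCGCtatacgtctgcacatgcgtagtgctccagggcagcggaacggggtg
Cox6a1: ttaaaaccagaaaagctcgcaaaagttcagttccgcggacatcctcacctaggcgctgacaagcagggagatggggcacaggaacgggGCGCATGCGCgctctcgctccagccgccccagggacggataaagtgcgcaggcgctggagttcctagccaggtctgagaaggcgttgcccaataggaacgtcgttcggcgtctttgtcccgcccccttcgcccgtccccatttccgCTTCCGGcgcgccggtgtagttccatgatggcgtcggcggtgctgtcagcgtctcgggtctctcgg
Ndufs6: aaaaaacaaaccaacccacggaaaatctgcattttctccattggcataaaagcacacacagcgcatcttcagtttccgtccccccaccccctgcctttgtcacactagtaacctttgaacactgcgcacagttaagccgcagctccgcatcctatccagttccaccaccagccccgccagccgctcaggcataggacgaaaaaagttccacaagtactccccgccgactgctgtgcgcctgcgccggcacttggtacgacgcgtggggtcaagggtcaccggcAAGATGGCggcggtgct

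The mitochondrial members fell into a group of high and a group of low levels. Per length, mt-Co1 (chrM:5328-6872), the catalytic subunit of complex IV, was the highest of all genes in SHAM, at 5740 ± 162 FPKM. The cytochrome b gene mt-Cytb ranked 3 among all genes at 4330 ± 281 FPKM, and mt-Nd1 of complex I ranked 5 at 3350 ± 271 FPKM. They were followed by mt-Nd2 (1920 FPKM), mt-Nd5 (1510), mt-Nd6 (1330), the only member transcribed from the other strand, and mt-Nd4 (1160). The 6 others were far lower, with SHAM means of 113 FPKM for mt-Nd3, 48.4 for mt-Co2, 35.8 for mt-Atp6, 34.7 for mt-Co3, 29.6 for mt-Nd4l and 2.57 for mt-Atp8. Transcripts of mitochondrial DNA are cut from a shared precursor. The counted levels of subunits of the same enzyme differed by over 2 orders of magnitude, as for mt-Co1 and mt-Co3 of complex IV. The strand setting of the counting is not given, so the level of mt-Nd6 can include reads from the opposite strand. The level of mt-Co3 is uncertain because of a nuclear copy, as described next.

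The low group shared its sequence with copies of mitochondrial DNA in the nuclear genome. Of all 100-base windows of the transcripts, 99.854% of those of mt-Co3, 99.487% of mt-Co2, 99.485% of mt-Atp6, 98.485% of mt-Nd4l and 97.59% of mt-Nd3 were also present in an annotated nuclear pseudogene. The share was 60.751% for mt-Nd4, 30.844% for mt-Co1 and 3.195% for mt-Nd2, and 0 for mt-Nd1, mt-Nd5, mt-Nd6 and mt-Cytb. All of these copies but that of mt-Nd2, Gm13339 on chromosome 2, lie side by side on chromosome 1 (GRCm38), from Gm28439 at 24611535 to Gm29216 ending at 24616197. mt-Atp8 had no window in an annotated transcript, but 21.078% of it overlaps mt-Atp6, and the stretch between the nuclear copies of its neighbours was not searched. The copies themselves carried counts. Over the 12 libraries mt-Co2 had 6794 counts and its copy Gm28661 had 3767, and mt-Atp6 had 5092 against 5989 for its copy Gm10925. In contrast mt-Co1, most of which is not copied, had 1911996 counts. How reads with several matches were counted is not given in the sources used here, so the levels of mt-Co2, mt-Co3, mt-Atp6, mt-Nd3 and mt-Nd4l, and part of those of mt-Nd4 and mt-Co1, are uncertain. The 90 bases of mt-Co2 below (chrM:7223-7312) are printed to show how close the copies are. The stretch of Gm28661 (chr1:24615266-24615355, minus strand) has 0 mismatches to mt-Co2, and that of a further copy, Gm13341 (chr2:22587663-22587752, minus strand), has 3, which are in capitals.
mt-Co2: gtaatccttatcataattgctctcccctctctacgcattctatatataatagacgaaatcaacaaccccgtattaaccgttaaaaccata
Gm28661: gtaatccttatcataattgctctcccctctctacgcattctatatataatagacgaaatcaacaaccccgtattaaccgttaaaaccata
Gm13341: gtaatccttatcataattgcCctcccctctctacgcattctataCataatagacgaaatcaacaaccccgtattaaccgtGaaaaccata

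**Figure D1:**
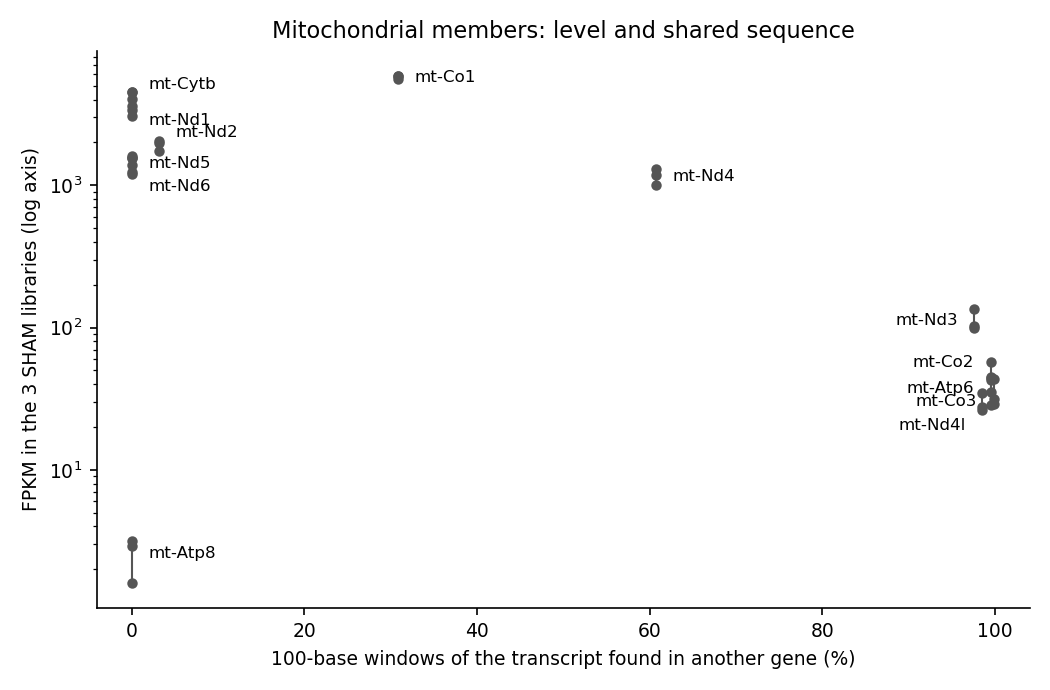
Level of each mitochondrial member in the 3 SHAM libraries (points, FPKM on a log axis, with the range as a line) against the percentage of its 100-base windows found in another annotated gene. The 5 members above 97% sit between 26.5 and 135 FPKM, and 7 of the 8 members at 60.751% or less sit from 997 FPKM upward, while mt-Atp8 is the lowest of all.

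In MOG vs. SHAM most nuclear members had slightly lower values, by an amount that depended on SHAM replicate 2. No member passed the test at an adjusted p under 0.05 (edgeR quasi-likelihood, Benjamini-Hochberg over 18299 genes, which called 1.34% of all genes), and DESeq2 on all 12 libraries also called 0. Of the 82 nuclear members, 79 had a log2 fold change below 0, with a median of -0.15, a difference of -10.1%, while the median of all genes was -0.00235. An unadjusted p under 0.05 was found for 16 nuclear members, all lower, against 6.78% of all genes tested in that direction. In 4 nuclear members (Ndufa2, Ndufb7, Atp5g1 and Atp5a1) all MOG libraries were below all SHAM libraries, and 8.34% of all genes showed the same. The direction held under the other scalings, with medians of -0.147 (size factors), -0.154 (total counts) and -0.145 (scaling without genes of mitochondrial DNA) and 78 or 79 members below 0.

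The size of this difference rested on SHAM replicates 2 and 3. Without SHAM replicate 2 the nuclear median was -0.0505, with 57 members below 0. Without SHAM replicate 3 it was -0.244, with 81 members below 0 and 10 members past the threshold. The nuclear members are also short, with a median exon length of 1631 bases against 3806 for all tested genes. Across genes the fold change of MOG vs. SHAM had a Spearman correlation of 0.393 with length (11130 genes, which are not independent), and with the length trend of each library removed the nuclear median was -0.0809, with 66 members below 0. The part of transcript length in the result was not tested.

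By complex, the median log2 fold change in MOG vs. SHAM was -0.16 in complex I (34 of 36 below 0), -0.04 in complex II (4 of 4), -0.11 in complex III (9 of 9), -0.18 in complex IV (15 of 16) and -0.14 in complex V (17 of 17). Without SHAM replicate 2 these medians were -0.0661, 0.0242, -0.0209, -0.0542 and -0.0405, so that complex II changed sign, as it also did with the length trend removed (0.0152). The median of complex II, whose subunits are all nuclear, was the nearest to 0, and the complexes were not tested against each other.

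The member with the smallest p in MOG vs. SHAM was Ndufa2, an accessory subunit of complex I. Its level was 61.8, 82.6 and 58.5 FPKM in SHAM and 55.6, 47.4 and 52.7 FPKM in MOG, and the groups did not overlap. Its log2 fold change was -0.38 ± 0.117 (SE, edgeR adjusted p = 0.14). Cox5b, a zinc-binding subunit of complex IV, stood at 46.0, 54.8 and 37.4 FPKM in SHAM and at 39.6, 31.8 and 35.7 FPKM in MOG, so that 1 SHAM library lay within the MOG range. For Cox5b the log2 fold change was -0.37 ± 0.113 (SE, edgeR adjusted p = 0.15). Uqcr11 had a log2 fold change of -0.38 (SE 0.181) with overlapping groups, since SHAM replicate 3 at 30.4 FPKM lay beside MOG replicate 2 at 30.0. Without SHAM replicate 2 the log2 fold changes were -0.21 for Ndufa2, -0.21 for Cox5b and -0.17 for Uqcr11. At the other end, Ndufs1, the largest core subunit of complex I, had a log2 fold change of 0.05, Ndufa4l2 of 0.04 and Ndufab1, the acyl carrier protein, of 0.00098. None of these 3 differed beyond its standard error.

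**Figure D2:**
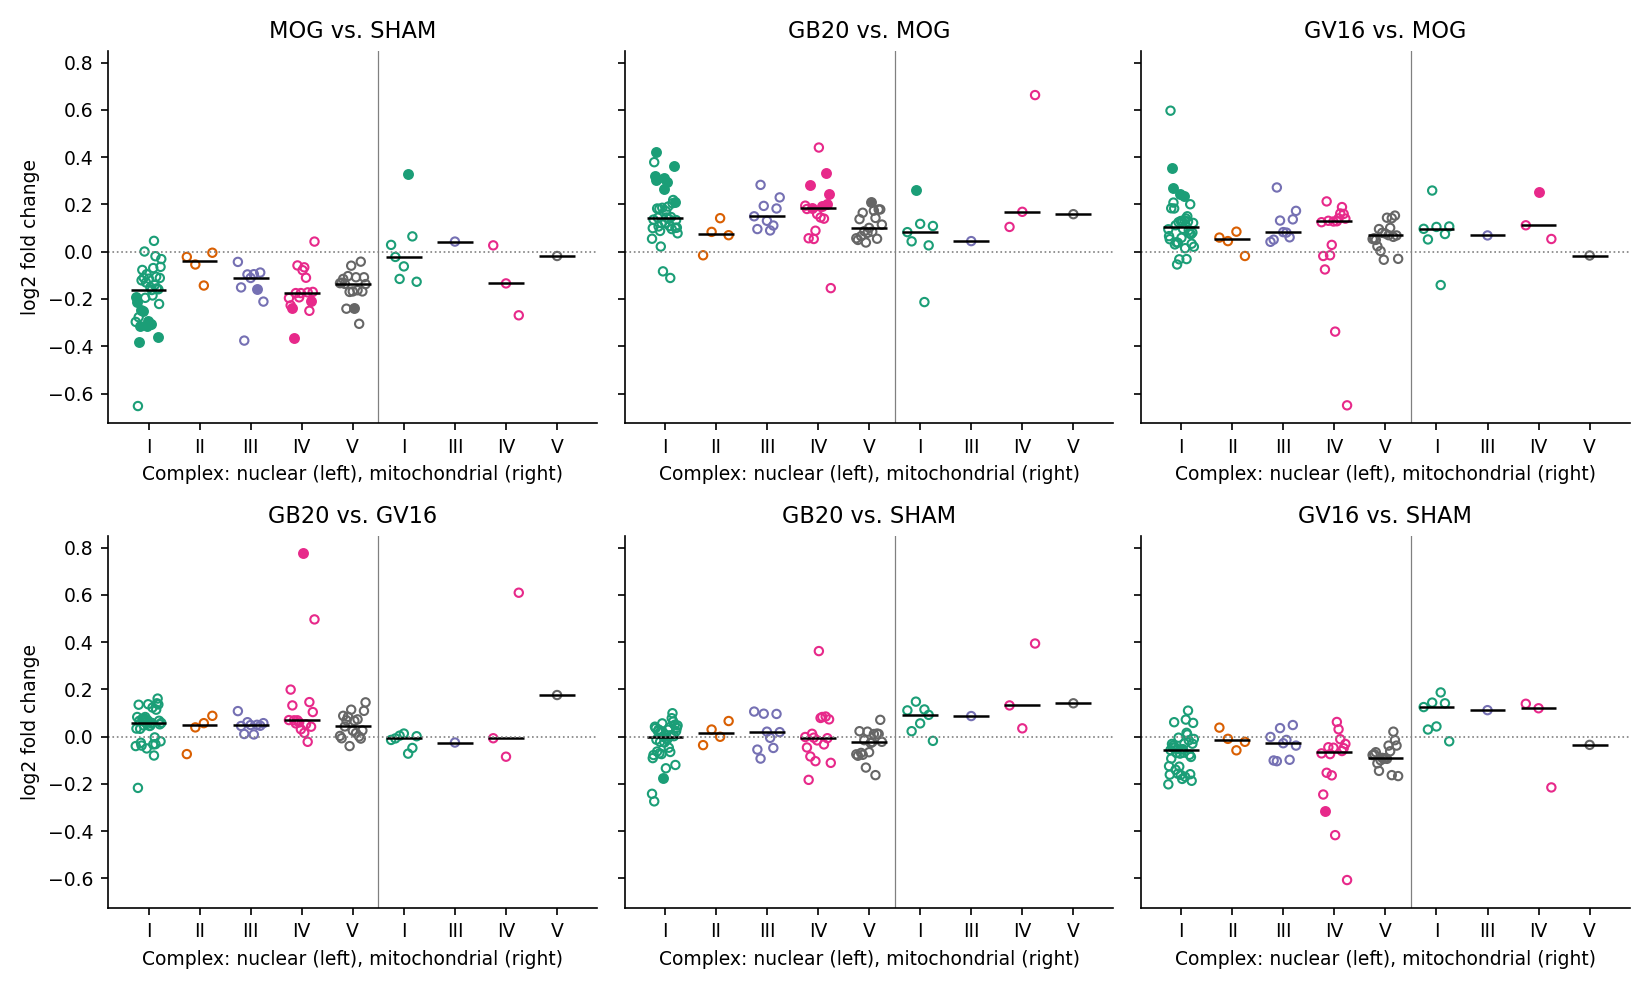
log2 fold change of the 94 tested members in the 6 comparisons, by complex, with nuclear members left and mitochondrial members right of the vertical line. Each point is a gene, filled where the unadjusted p is under 0.05, and black bars are medians. Nuclear members lie mostly below 0 in MOG vs. SHAM (79 of 82) and mostly above 0 in GB20 vs. MOG (78 of 82).

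GB20 vs. MOG showed slightly higher nuclear members. No member passed the test (0.24% of all genes did), while 78 of 82 nuclear members had a log2 fold change above 0, with a median of 0.14, a difference of 10.4%. DESeq2 on all 12 libraries called 0 members. With the 6 libraries of these groups alone, DESeq2 called Ndufa2 (adjusted p = 0.0109), and edgeR called Ndufa2 (adjusted p = 0.00975) and Cox7c (adjusted p = 0.048). An unadjusted p under 0.05 was found for 15 nuclear members, all higher, against 4.11% of all genes. In 24 of 82 nuclear members all GB20 libraries were above all MOG libraries, against 7.96% of all genes. Of these 24, 12 belong to complex I, among them the core subunits Ndufs3 and Ndufv1, 4 to complex III, 6 to complex IV and 2 to complex V. In Ndufs1 alone all GB20 libraries were below all MOG libraries (log2 fold change -0.11). The length correlation was -0.41 here, and with the length trend removed the median was 0.085 and 73 nuclear members were above 0. Without any 1 library the median lay between 0.111 (without MOG replicate 3) and 0.183 (without GB20 replicate 3). Because MOG vs. SHAM and GB20 vs. MOG share the MOG libraries, their opposite signs are not independent of each other.

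The values of Ndufa2 in GB20 were 74.7, 67.9 and 65.5 FPKM, all above the highest MOG library at 55.6. Its log2 fold change in GB20 vs. MOG was 0.42 ± 0.117 (SE, edgeR adjusted p = 0.262), the second highest of the nuclear members. Cox7a1 was the highest, with a log2 fold change of 0.44 ± 0.27 (SE, edgeR adjusted p = 0.697). Both are short transcripts, and Cox7a1 is present at a low level. The third, Ndufa12, a subunit of complex I, had a log2 fold change of 0.38 with an SE of 0.487, and is described with the single libraries below. Cox8a stood at 300.2, 302.4 and 289.4 FPKM in GB20 and at 265.4, 240.6 and 269.1 FPKM in MOG, without overlap (log2 fold change 0.20, SE 0.09, adjusted p = 0.578 by edgeR). The GB20 libraries of Cox8a lay within the SHAM range, which ran from 253.7 to 350.5 FPKM.

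GV16 vs. MOG had the same sign with a smaller median. The log2 fold change was above 0 in 71 of 82 nuclear members, with a median of 0.08, a difference of 5.98%, and no member passed the test (0.164% of all genes did, and DESeq2 on all 12 libraries called 0 members). An unadjusted p under 0.05 was found for 4 nuclear members, all higher, against 2.29% of all genes. These were Ndufa2, Ndufa3, Ndufb3 and Ndufb8, all of complex I. In 6 nuclear members all GV16 libraries were above all MOG libraries, against 6.17% of all genes. Ndufa2 was again the member with the smallest p, at 58.2, 74.4 and 66.4 FPKM in GV16 (log2 fold change 0.35, SE 0.118, adjusted p = 0.623 by edgeR). Without GV16 replicate 2 the nuclear median was 0.0341.

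The direct comparison of the needling sites, GB20 vs. GV16, called no member (0.00546% of all genes, 1 gene, passed; DESeq2 on all 12 libraries called 0 members). The nuclear median was 0.06, and 67 of 82 members were above 0. With the length trend removed the median was 0.0155, and leaving out 1 library at a time moved it between 0.0195 (without GV16 replicate 3) and 0.107 (without GV16 replicate 2). Only Cox7a1 (chr7:30184144-30186078), the muscle isoform of a complex IV subunit, had an unadjusted p under 0.05, in a comparison where 1.62% of all genes were higher at that level. Its levels were 3.13, 3.96 and 3.97 FPKM in GB20 and 1.73, 2.14 and 2.53 FPKM in GV16. The groups did not overlap with each other, SHAM (2.05 to 3.36 FPKM) overlapped with both, and MOG (2.50 to 2.89 FPKM) overlapped with GV16. Of 6 muscle markers, Myh2 and Tnnt3 were under 0.1 CPM in all libraries, while 3 had a mean of at least 1 CPM. The 6 muscle markers summed to 3.83 to 4.25 CPM in GB20 and 3.22 to 5.26 CPM in GV16. On the log2 scale the difference was 0.78 ± 0.281 (SE, edgeR adjusted p = 1). Cox4i2 was also higher in all GB20 than in all GV16 libraries, with a log2 fold change of 0.20 ± 0.119 (SE, edgeR adjusted p = 1).

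Against SHAM, the nuclear medians of the needled groups depended on which SHAM libraries entered. In GB20 vs. SHAM the nuclear median was -0.00476, with 45 of 82 members below 0, and no member passed the test (0.344% of all genes did, and DESeq2 on all 12 libraries called 0 members). The only nuclear member with an unadjusted p under 0.05 was Ndufb2, lower at 6.18, 5.58 and 5.63 FPKM in GB20 against 6.69, 6.32 and 6.63 FPKM in SHAM, while 4.82% of all genes were lower at that level. Its difference on the log2 scale was -0.18 ± 0.0802 (SE, edgeR adjusted p = 0.51). In GV16 vs. SHAM the nuclear median was -0.06, with 70 members below 0, and no member passed the test (0.656% of all genes did, and DESeq2 on all 12 libraries called 0 members). Both medians changed sign without SHAM replicate 2, to 0.109 in GB20 vs. SHAM and 0.0441 in GV16 vs. SHAM, and without SHAM replicate 3 they were -0.108 and -0.158. The MOG vs. SHAM median without SHAM replicate 2 was -0.0505, nearer to 0 than that of GB20 vs. SHAM. The GB20 vs. SHAM median was also above 0 without GB20 replicate 3 (0.0274), with the length trend removed (0.00659) and with size factor scaling (0.00116).

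Cox5a (chr9:57521274-57532426), a subunit of complex IV, was the only member with an unadjusted p under 0.05 in GV16 vs. SHAM, where 5.69% of all genes were lower at that level. Its levels were 27.5, 28.0 and 22.3 FPKM in SHAM and 21.5, 22.2 and 18.9 FPKM in GV16, just without overlap. The log2 fold change was -0.32 ± 0.091 (SE, edgeR adjusted p = 0.131). With the replicate number as a block the adjusted p was 0.0455, which makes Cox5a the 1 member called lower in that fit. MOG, at 23.9, 21.3 and 20.7 FPKM, and GB20, at 21.6, 23.7 and 23.2 FPKM, lay near GV16. Against MOG, the log2 fold change of Cox5a was 0.06 in GB20 and -0.08 in GV16, both within the standard error. Its exons overlap those of a divergent non-coding gene by 12.803%.

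**Figure D3:**
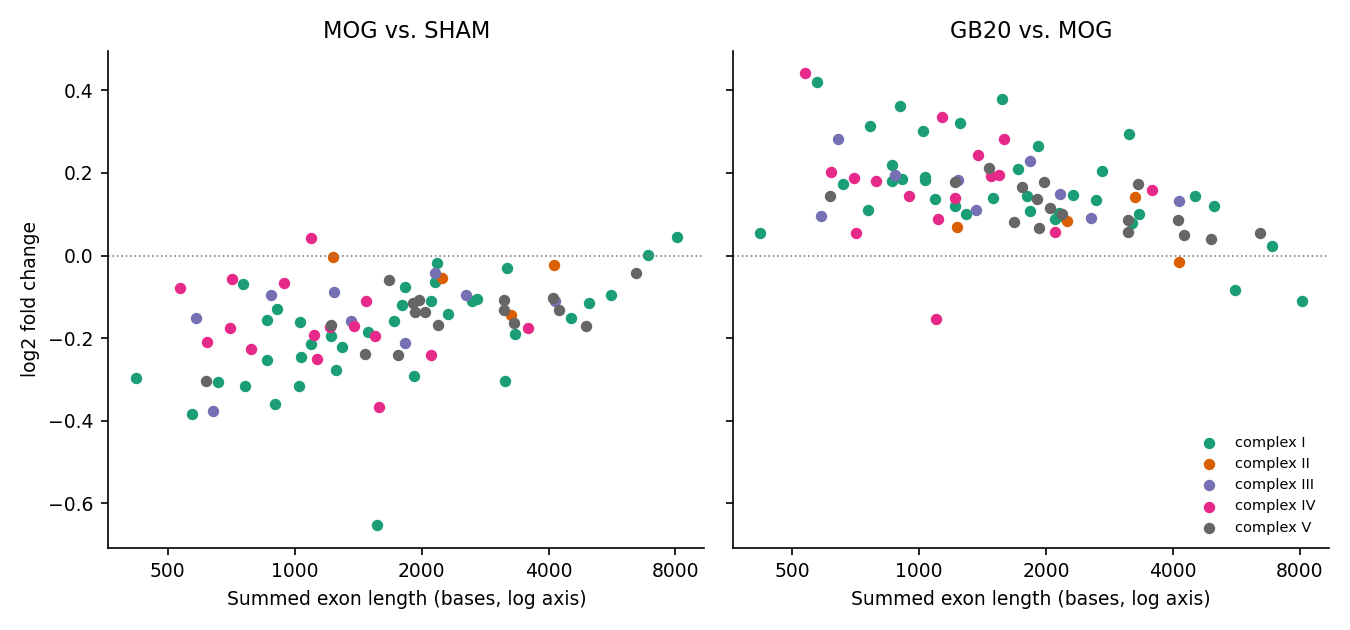
log2 fold change of the 82 tested nuclear members (points, coloured by complex) against their summed exon length on a log axis, for MOG vs. SHAM and GB20 vs. MOG. The longest members, such as Ndufs1 (8086 bases), lie near or across 0, and some short ones such as Ndufa2 (572 bases) lie farther from it. Others depart from this in MOG vs. SHAM, such as Cox6b1 (708 bases) at -0.058 and Atp5g1 (4912 bases) at -0.17.

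The mitochondrial members had a median near 0 in MOG vs. SHAM, and 0 passed the test. Their median log2 fold change was -0.02 over 12 tested members, of which 7 were below 0 and 5 above. Leaving out 1 library at a time moved it between -0.124 (without MOG replicate 1) and 0.0329 (without MOG replicate 3), with 0.0227 without SHAM replicate 2. With the length trend removed it was 0.0479, with 8 of 12 above 0. Of the members with little or no copied sequence, the log2 fold change was 0.03 for mt-Nd1, -0.02 for mt-Nd2, 0.07 for mt-Nd5, 0.04 for mt-Cytb and -0.13 for mt-Nd6 (SE 0.0812 to 0.0894). mt-Co1, at 5846, 5822 and 5555 FPKM in SHAM and 6186, 5844 and 5549 FPKM in MOG, had a log2 fold change of 0.03 (SE 0.082). mt-Nd4l had the only unadjusted p under 0.05 (0.0214), being higher in MOG at 32.7, 39.3 and 40.1 FPKM against 26.4, 27.9 and 34.6 FPKM in SHAM. This is a log2 fold change of 0.33 ± 0.132 (SE, edgeR adjusted p = 0.281), the groups overlapped, and 98.485% of its windows are copied in the nucleus.

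In the needled groups most mitochondrial members were slightly above both MOG and SHAM, and none passed the test. The median log2 fold change was 0.11 in GB20 vs. MOG (11 of 12 above 0), 0.09 in GV16 vs. MOG (10 of 12), 0.10 in GB20 vs. SHAM (11 of 12) and 0.12 in GV16 vs. SHAM (9 of 12), and it was -0.00727 in GB20 vs. GV16 (5 of 12). mt-Co1 stood at 6829, 6074 and 6009 FPKM in GB20 and at 6249, 6758 and 6009 FPKM in GV16, so that all needled libraries were above all SHAM libraries. Its log2 fold change was 0.13 in GB20 vs. SHAM ± 0.082 (SE, edgeR adjusted p = 0.699) and 0.14 in GV16 vs. SHAM ± 0.082 (SE, edgeR adjusted p = 0.56). The MOG libraries of mt-Co1 overlapped with both. mt-Nd3 in GB20 vs. MOG (log2 fold change 0.26, adjusted p = 0.621 by edgeR) and mt-Co2 in GV16 vs. MOG (0.25, adjusted p = 0.912 by edgeR) had unadjusted p-values of 0.0483 and 0.0357, and both are almost wholly copied in the nucleus. Over the 6 comparisons the log2 fold change of mt-Nd4 ranged from -0.06 to 0.12 and mt-Atp6 from -0.04 to 0.18. With the length trend removed the mitochondrial median was 0.02 in GB20 vs. MOG. These medians leaned on single libraries, since without GB20 replicate 1 they were 0.0421 in GB20 vs. MOG and 0.0253 in GB20 vs. SHAM, and without GV16 replicate 2 they were 0.0352 in GV16 vs. MOG and 0.0428 in GV16 vs. SHAM.

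The sums over all members put both genomes side by side. For the nuclear members the sum in CPM was 7566, 8469 and 6722 for SHAM, 7284, 6670 and 6691 for MOG, 7717, 7554 and 7174 for GB20, and 7160, 7734 and 7033 for GV16. For the mitochondrial members it was 25023, 25078 and 23100 for SHAM, 26482, 24312 and 23453 for MOG, 28266, 24962 and 25127 for GB20, and 26184, 28029 and 24911 for GV16. The SHAM libraries thus spanned the nuclear sums of nearly all other libraries, with MOG replicates 2 and 3 just under the lowest of them. The log2 ratio of mitochondrial to nuclear counts, which does not depend on library scaling, was 1.73, 1.57 and 1.78 in SHAM and 1.86, 1.87 and 1.81 in MOG. It was 1.87, 1.72 and 1.81 in GB20 and 1.87, 1.86 and 1.82 in GV16. All MOG and GV16 libraries were above all SHAM libraries, and GB20 overlapped with SHAM through its replicate 2. Within pairs of the same number, GB20 was above SHAM in 3 of 3. This pairing was read from these same data, and no test was run on it. Taken as the mean log2 CPM per member, the ratio was 2.31, 2.27 and 2.49 in SHAM, 2.49, 2.46 and 2.44 in MOG, and 2.48, 2.47 and 2.44 in GV16, so that the groups overlapped by this measure. For the ratio of sums, the group means were 1.69 ± 0.111, 1.85 ± 0.0315, 1.80 ± 0.0745 and 1.85 ± 0.0238 (SD, n = 3) in SHAM, MOG, GB20 and GV16, which are 3.23, 3.59, 3.49 and 3.61 mitochondrial counts for each nuclear count. The difference of MOG and SHAM was 0.155 on the log2 scale, and 0.0926 without SHAM replicate 2. No p is given for this ratio, since the members were chosen with results known.

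**Figure D4:**
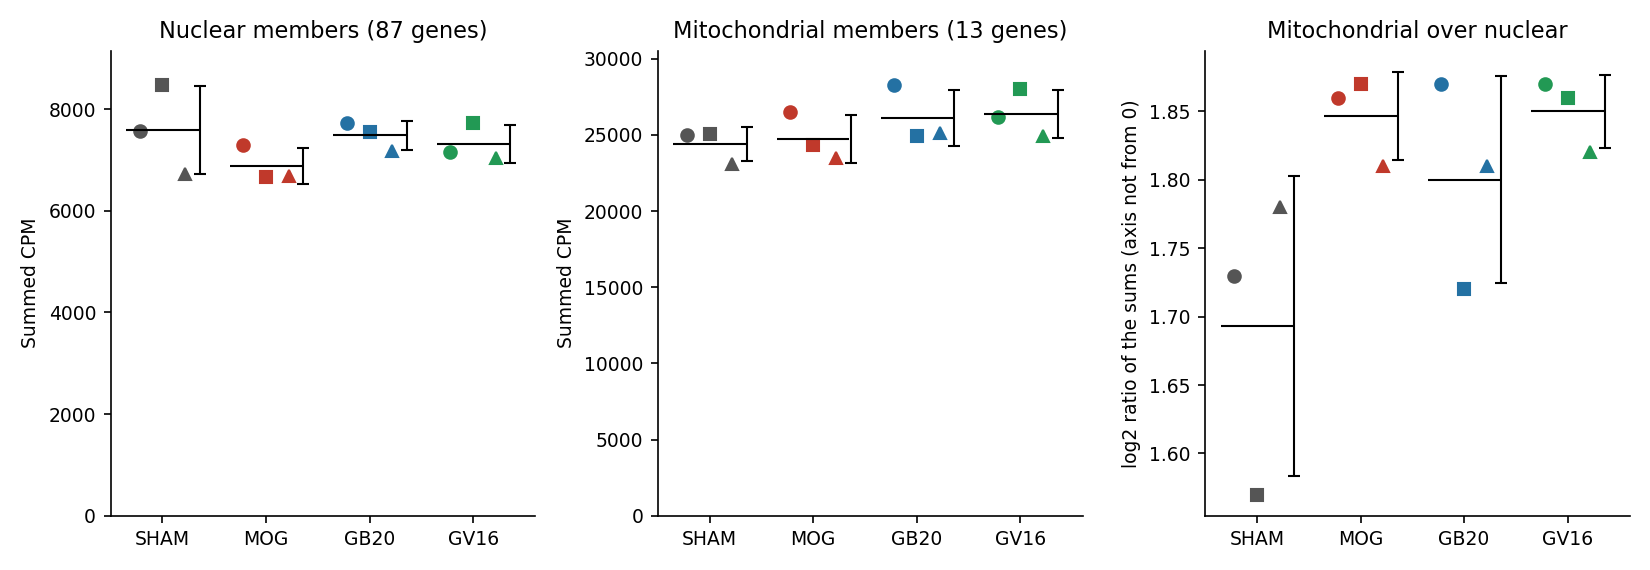
Summed CPM of the 87 nuclear members (left) and the 13 mitochondrial members (middle), and the log2 ratio of both sums (right, axis not from 0), by group. Circles, squares and triangles are replicates 1, 2 and 3, lines are means and bars are SD (n = 3). The ratio of SHAM replicate 2 is the lowest at 1.57, and all MOG and GV16 libraries lie above 1.78, the highest SHAM value.

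In some members single libraries set the group means. Ndufa12 (chr10:94198720-94221443), an accessory subunit of complex I, stood at 23.1 FPKM in SHAM replicate 2, 21.6 in GV16 replicate 1 and 16.6 in GB20 replicate 1, and between 7.78 and 10.7 in the other 9 libraries. It gave the lowest log2 fold change of all nuclear members in MOG vs. SHAM, -0.65 (SE 0.482), which was -0.102 without SHAM replicate 2. Uqcrb (chr13:66900617-66905378), a subunit of complex III that binds ubiquinone, ranged in SHAM alone from 38.2 to 80.2 FPKM, which covers every other library. mt-Co3 (chrM:8607-9390), a core subunit of complex IV, stood at 72.2 FPKM in GB20 replicate 1 and between 27.6 and 43.8 FPKM in the other 11 libraries. Its log2 fold change in GB20 vs. MOG was 0.66 ± 0.323 (SE, edgeR adjusted p = 0.652). SHAM replicate 2 and GB20 replicate 1 were among the 3 highest libraries for all 3 genes.

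**Figure D5:**
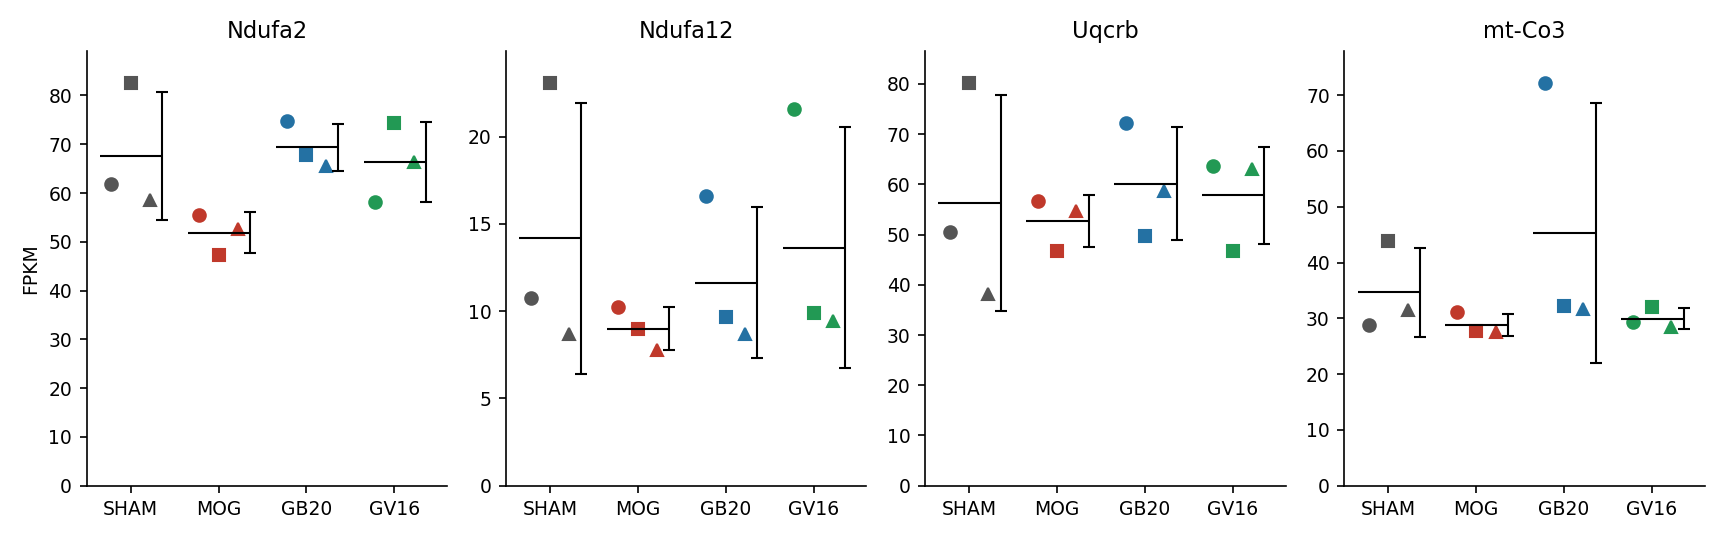
FPKM of Ndufa2, Ndufa12, Uqcrb and mt-Co3 in every library, by group, with circles, squares and triangles for replicates 1, 2 and 3, a line for the mean and a bar for the SD (n = 3). MOG lies below the other groups in Ndufa2, whereas in Ndufa12 and mt-Co3 the group means follow single libraries, such as 72.2 FPKM of mt-Co3 in GB20 replicate 1.

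Other lists of mitochondrial genes also had medians below 0 in MOG vs. SHAM, and no gene of them passed the test. The median of the regulators of biogenesis, with 7 of 13 below 0, lay beside that of all genes (-0.00235). Among 77 tested proteins of the mitochondrial ribosome, which translates the mitochondrial members, 66 were below 0 in MOG vs. SHAM (median -0.11, and -0.035 without SHAM replicate 2) and 59 above 0 in GB20 vs. MOG (median 0.08), and 0 passed the test. Of 46 tested assembly factors of the complexes, 36 were below 0 in MOG vs. SHAM (median -0.06, and -0.0356 without SHAM replicate 2) and 25 above 0 in GB20 vs. MOG (median 0.02). The 6 assembly factors of complex III had a median of -0.16, which was -0.0495 without SHAM replicate 2. The medians of MOG vs. SHAM were -0.04 for 24 genes of mitochondrial DNA replication and expression, -0.03 for 15 electron carriers, -0.06 for 13 genes of the citric acid cycle, -0.09 for 9 antioxidant genes and -0.00327 for 13 regulators of mitochondrial biogenesis. Without SHAM replicate 2 these 5 medians lay between -0.0491 and 0.0133, and with the length trend removed between -0.0712 and 0.0279. At an unadjusted p under 0.05 in MOG vs. SHAM, 6 of 77 were lower for the ribosome and 4 of 46 for the assembly factors. The counts were 2 of 24 for mitochondrial DNA expression, 3 of 9 for the antioxidant genes and 1 of 13 for the regulators. They were 0 of 15 for the electron carriers and 0 of 13 for the citric acid cycle. In these lists 0 genes were higher, and 6.78% of all genes were lower at that level. No gene of these lists was called by edgeR in any of the 6 comparisons.

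Markers of retinal ganglion cells fell in MOG. Of 12 markers of retinal ganglion cells, the neurons whose axons form the optic nerve, 11 were called lower in MOG vs. SHAM. Over all genes tested, 1.34% were called in that comparison, in either direction. All marker lists were chosen with earlier results of these data known. The ganglion cell markers had a median log2 fold change of -0.90, and their sum was 1030 to 1140 CPM in SHAM and 649 to 746 CPM in MOG. Of 8 microglia markers 2 were called higher, and their sum was 19.2 to 26.0 CPM in SHAM and 32.4 to 37.0 CPM in MOG. Markers of the pigment epithelium summed to 26.7 to 35.9 CPM in SHAM and 44.8 to 56.6 CPM in MOG, with 0 called. Cone markers summed to 1410 to 1610 CPM in SHAM, 1360 to 1410 in MOG and 1480 to 1550 in GB20. Müller glia markers summed to 3170 to 3390 CPM in SHAM, 2840 to 3170 in MOG and 3080 to 3260 in GB20. Most of this sum was Glul, at 2160, 2080 and 2000 CPM in SHAM. Of the 7 Müller glia markers, Aqp4 went the other way and was called higher in MOG vs. SHAM (log2 fold change 0.464, edgeR adjusted p = 0.000812). Aqp4 was called lower in GB20 vs. MOG (edgeR adjusted p = 0.0293) and in GV16 vs. MOG (edgeR adjusted p = 0.0472). In bulk RNA, fewer cells of a type and less RNA per cell cannot be told apart. A list of 5 RNAs that can follow RNA quality, nuclear-retained and mitochondrial ribosomal, summed to 3890 to 4680 CPM in SHAM and 4660 to 5220 CPM in MOG, with 0 called. The part of these cell types and of RNA quality in the values of the chain was not tested. In GB20 the ganglion cell markers summed to 738 to 765 CPM, which overlapped with MOG and stayed under SHAM. The nuclear sums of the chain in GB20 lay within the wide SHAM range of 6722 to 8469 CPM. MOG replicate 1 also lay within that range, and MOG replicates 2 and 3 were just under it.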

How the data were processed

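Retinal RNA of 12 libraries was analysed, 3 in each of 4 groups taken from the labels. Per the paper's methods, the authors enriched polyadenylated RNA, aligned reads with HISAT2 2.0.5 (build mm10, per the submitters' processing notes), counted them on genes with FeatureCounts and deposited the raw whole-number counts. FPKM values, made by the authors from counts and gene length, were deposited too. Not given in the sources used here were the strand setting, the annotation release and the treatment of reads with several matches. GENCODE vM21 (GRCm38) gave symbols, exon lengths and coordinates for 54409 of the 54532 identifiers.

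The test on counts used edgeR 4.0.16 under R 4.3.3, with the expression filter with 4 groups (18299 genes), TMM scaling, 1 mean per group, robust quasi-likelihood dispersion, 8 residual degrees of freedom and Benjamini-Hochberg adjustment over all genes tested, with a threshold of 0.05. The fit was tested on simulated data. CPM values used TMM library sizes. FPKM values are the deposited ones and were not tested. Groups were said not to overlap where all CPM values of one were above all of the other. Depth (15860278 to 19194280 counts per library) limits the precision of low genes. Sequence shared between genes was sought as identical 100-base windows of annotated transcripts.

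Replicate numbers are shared between groups. Same-numbered libraries deviated together in GB20 and SHAM (correlations 0.211, 0.518 and 0.488 over 11150 genes) and in GV16 and SHAM (0.222, 0.282 and 0.256). They did not in GB20 and GV16 (-0.174, 0.0129 and 0.0786). In MOG and GV16 the same-numbered correlations were 0.374, 0.0102 and 0.108. Pairs of unlike number ranged from -0.508 (SHAM replicate 2 and GB20 replicate 3) to 0.295 (MOG replicate 2 and GV16 replicate 3). Same-numbered libraries were thus alike between each needled group and SHAM, but not between the needled groups, and what they share was not tested. Deviations within a group sum to 0, so these correlations are not independent. The methods state that the experiment was repeated, with more than 1 mouse in each group. They do not state that the replicate numbers stand for these repeats, so the pairing is read from the data. DESeq2 1.42.0, other scalings, no filter, a replicate block, removal of each library's length trend and leaving out each library were alternatives. Named genes were all mitochondrial members, the 3 highest and 3 lowest nuclear log2 fold changes of each comparison, the highest and lowest SHAM FPKM of each complex, the isoform sets, and genes with an adjusted p under 0.05 (none among members or lists of mitochondrial genes). The result for 1 gene that this rule names is not reported here. Other members were named because a result turned on them, after their values were seen. The members and lists were chosen with earlier results of these data known.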

Additional observations from a re-analysis of the deposited data

How the results depend on the processing

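Of 198 recomputed values of the main results (members called in each comparison, and the mitochondrial to nuclear ratio), 10 moved. Without a filter on low counts, 6 members were called lower in MOG vs. SHAM (Ndufa2, Uqcr11, Ndufs6, Ndufb8, Ndufb3 and Cox5b), 2 higher in GB20 vs. MOG (Ndufa2 and Cox7c) and 1 lower in GV16 vs. SHAM (Cox5a). With the 6 libraries of GB20 and MOG alone, DESeq2 called 1 member and edgeR 2. Leaving out 1 library at a time gave 0 to 10 members in MOG vs. SHAM (10 without SHAM replicate 3), 0 to 1 in GB20 vs. MOG (Ndufa2, without SHAM replicate 2), 0 to 1 in GV16 vs. SHAM (Cox5a, without SHAM replicate 3) and 0 in the other comparisons. The log2 ratio difference of MOG vs. SHAM lay between 0.0926 and 0.2 over these fits, and was 0.161 with mt-Nd1, mt-Nd2, mt-Nd5, mt-Nd6 and mt-Cytb alone, an alternative chosen after seeing the data. The replicate block called 1 member in GV16 vs. SHAM and 0 in the others. Together with the length correction, the replicate block called 1 member lower in MOG vs. SHAM (Cox5b, edgeR adjusted p = 0.0424, range over all settings 0.00125 to 0.561) and 0 in the others. Same-numbered libraries had correlations of 0.262, -0.0724 and 0.0944 in MOG and SHAM, so there the numbers do not show a pairing, and SHAM replicate 2 correlated more with MOG replicate 3 (0.0458) than with its own number. Over all genes the block moved the calls from 245 to 404 in MOG vs. SHAM, from 44 to 73 in GB20 vs. MOG, from 30 to 47 in GV16 vs. MOG, from 63 to 182 in GB20 vs. SHAM and from 120 to 236 in GV16 vs. SHAM. With the length correction added these were 445, 91, 67, 238 and 319. No filter gave 539, 140, 73, 282 and 395 calls in the same order, and 8 against 1 in GB20 vs. GV16. With 6 libraries, DESeq2 gave 126, 57, 4 and 124 calls and edgeR 118, 48, 3 and 66 in GB20 vs. MOG, GV16 vs. MOG, GB20 vs. GV16 and GB20 vs. SHAM, and edgeR gave 66 in GV16 vs. SHAM. DESeq2 on 12 libraries gave 5 in GB20 vs. GV16, 152 in GB20 vs. SHAM and 202 in GV16 vs. SHAM, and length correction alone gave 130 in GB20 vs. SHAM. The causes of these shifts were not tested. Among 5940 recomputed fold changes of named members, 322 had the other sign, none of them called in either fit. With 3 libraries a group, no member's difference passed the test although many had the same sign.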
